A study of Mus musculus with 6 samples.

Results

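The miR-30 family was followed across its 3 genomic clusters in cultured mouse epicardial cells with and without CRISPR targeting of Hdac3. Members were the rows of the deposited count table named miR-30a, 30b, 30c, 30c-1, 30c-2, 30d or 30e, with or without an arm suffix. There were 11 of them among 1028 mature microRNAs, 5 from the 5p arm and 6 from the 3p arm, and each row carried an arm suffix. The controls (EV, 3 libraries) were an epicardial cell line transduced with an empty-vector lentivirus. The other group (KO, 3 libraries) was the same line transduced with a lentivirus carrying an sgRNA against Hdac3, the gene of a histone deacetylase found in repressor complexes. Both groups were grown in high-glucose medium with serum, and the sources used here do not say whether the KO cells were 1 clone or a pool, or how long after transduction they were collected. The comparison addresses which microRNAs differ when Hdac3 is targeted in epicardial cells, the outer layer of the heart.

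MicroRNAs are short RNAs that guide Argonaute proteins to messenger RNAs, mainly through the seed, bases 2 to 8 from the 5′ end, and lower the output of the messages they pair with. Each hairpin precursor can yield a 5p and a 3p mature strand, of which usually 1 is kept. The 5p strands of miR-30 share a seed and are abundant in heart and kidney, where they are known to restrain connective tissue growth factor, a fibrosis-associated secreted protein, and Snai1, a driver of the epithelial-to-mesenchymal transition. The hairpins lie in pairs, 30b with 30d, 30a with 30c-2, and 30e with 30c-1, and miR-30c-5p is made with an identical sequence by 2 hairpins in 2 clusters, so its reads cannot be assigned to either.

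The mature sequences are shown because the seeds divide the family by arm. Of the 11 members, 7 matched the RefSeq microRNA table (GRCm38.p6), and the seed is in capitals. The members miR-30b-5p, miR-30b-3p, miR-30d-5p and miR-30d-3p are given by name.
miR-30a-5p: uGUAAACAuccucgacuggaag
miR-30e-5p: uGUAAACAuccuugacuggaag
miR-30c-5p: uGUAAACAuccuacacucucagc
miR-30a-3p: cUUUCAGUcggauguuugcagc
miR-30e-3p: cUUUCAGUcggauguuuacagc
miR-30c-2-3p: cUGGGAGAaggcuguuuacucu
miR-30c-1-3p: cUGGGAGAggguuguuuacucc

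The 5p strands in this set shared 1 seed. The 3p strands fell into 2 seed groups, miR-30a-3p with miR-30e-3p and the pair from the 30c hairpins. Counting positions from 1 at the 5′ end, miR-30e-5p differed from miR-30a-5p by C13U alone, and miR-30e-3p from miR-30a-3p by G18A alone. The 30c-1 strand differed from the 30c-2 strand by A9G, C12U and U22C, all outside the seed. The sources used here do not state how reads with mismatches were assigned, and whether miR-30a and miR-30e exchanged reads was not tested.

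In GRCm38, Mir30a (chromosome 1, 23272269 to 23272339, plus strand) lies inside no other gene of the GENCODE annotation. Mir30c-2 (chromosome 1, 23291701 to 23291784, plus strand) follows after 19361 bp and overlaps an exon of the lincRNA Gm27028 on the same strand. Mir30e (chromosome 4, 120772606 to 120772697, minus strand) and Mir30c-1 (chromosome 4, 120769534 to 120769622, minus strand) are 2983 bp apart in an intron of Nfyc, which encodes a subunit of the transcription factor NF-Y and runs on the same strand.

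The libraries held 11824881 to 13412774 counts. CPM are read counts scaled to the library total, which was first corrected by a TMM factor that ran from 0.919 to 1.23, the latter in EV 1. The 6 listed mesenchymal markers were found in every library at widely differing levels. Among them, miR-143-3p had 71245 to 82146 CPM, miR-214-3p 386 to 538 and miR-145a-5p 279 to 399. None of the 6 was called. The epithelial miR-200 list summed to 41.4 to 50.0 CPM in EV and 25.3 to 27.3 in KO. Of its 4 tested strands 2 were called lower in KO, where 2.61% of all tested microRNAs were. These were miR-200a-3p (log2 -0.88, edgeR adjusted p = 0.00898) and miR-200b-3p (log2 -0.80, edgeR adjusted p = 0.00777). The list of 6 muscle microRNAs, 4 of which were in the table, summed to 26.3 to 27.2 CPM in EV and 21.0 to 25.1 in KO. Of these, miR-133a-3p was at 0 in EV 1, EV 2, KO 1 and KO 3 and had 0.0892 CPM or less in EV 3 and KO 2, miR-1a-3p had 0.828 to 1.25 CPM in EV and 1.75 to 2.35 in KO, and miR-206-3p had 25.4 to 25.9 CPM in EV and 18.8 to 22.5 in KO, none of them called. EV 3 and KO 2 stood apart by the red blood cell microRNA miR-451a, at 54.7 and 62.7 CPM against 0.243 to 2.45 in the other 4 libraries. They were also the highest for the neural miR-9-5p (51.4 and 57.1 CPM against 11.3 to 32.6) and miR-124-3p (0.714 and 0.718 CPM against 0 to 0.163). The list of 8 blood microRNAs, 7 of which were in the table, summed to 8.92 to 68.4 CPM in EV and 6.16 to 78.3 in KO. Of these, miR-486a-5p was also highest in EV 3 and KO 2, at 13.3 and 15.1 CPM, while miR-144-3p and miR-223-3p were at 0 in both. The part of these differences in the results was not tested, but the changes of members and the arm ratios were also fitted without EV 3 and KO 2.

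With all 6 libraries and TMM, KO cells had more miR-30b-5p and miR-30c-5p than EV cells, both 5p strands, of which miR-30c-5p was the more abundant. Neither passed the threshold when any library other than EV 3 was left out, or with library size alone as the scaling. A microRNA counted as called (risen or fallen) when its edgeR quasi-likelihood adjusted p (Benjamini-Hochberg over the 460 microRNAs that passed a filter on low counts) was under 0.05. All 11 members passed the filter. Of them 2 rose, 0 fell and 9 were not called, where 7.61% of all tested microRNAs were called, 5.00% rising and 2.61% falling. The median log2 change was 0.19 over the members and -0.01 over all 460. Cell composition was not measured, and in such bulk samples fewer cells of a type and less RNA per cell cannot be told apart.

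miR-30b-5p stood at 56.9, 65.8 and 62.6 CPM in EV 1 to 3, and at 84.1, 82.2 and 85.1 CPM in KO 1 to 3. The groups did not overlap, and the KO libraries lay within a narrower band than the EV libraries. The rise was 1.36-fold (log2 0.44, SE 0.10, edgeR adjusted p = 0.0285), from 61.8 ± 4.52 to 83.8 ± 1.45 CPM (SD, n = 3 each). In the authors' deposited table, which lists 78 microRNAs, its log2 change is 0.42 with an adjusted p of 3.69e-07.

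miR-30c-5p stood at 383, 429 and 508 CPM in EV 1 to 3, and at 594, 570 and 593 CPM in KO 1 to 3. Again every KO library lay above every EV library, with EV 3 the nearest. The rise was 1.33-fold (log2 0.41, SE 0.10, edgeR adjusted p = 0.0314), from 440 ± 63.0 to 585 ± 13.4 CPM (SD, n = 3 each). The authors' deposited table gives 0.39 with an adjusted p of 0.00349, and holds no other miR-30 member.

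Both calls were lost when any library other than EV 3 was left out. The log2 changes were then 0.39 to 0.46 for miR-30b-5p and 0.33 to 0.44 for miR-30c-5p. Both calls were also lost with library size alone as the scaling. miR-30b-5p was not called without EV 1, EV 2, KO 1, KO 2 or KO 3 (edgeR adjusted p = 0.0678, 0.0612, 0.123, 0.0648 and 0.117), and miR-30c-5p was not called without the same libraries (edgeR adjusted p = 0.0615, 0.116, 0.142, 0.0846 and 0.117). With library size alone as the scaling neither was called, at log2 changes of 0.29 (SE 0.14, edgeR adjusted p = 0.268) and 0.27 (SE 0.09, edgeR adjusted p = 0.150). The microRNA with the most reads, miR-21a-5p, stood at 514006 to 763128 CPM in EV and 676379 to 754537 in KO. When miR-21a-5p was left out of the library sizes, miR-30b-5p was not called (log2 0.34, SE 0.09, edgeR adjusted p = 0.0543). Library size alone moved the median of all microRNAs to -0.16 and the median of the members to 0.03. The members' median lay 0.19 above that of all microRNAs with library size alone and 0.20 above it with TMM. Both log2 changes were above 0 in each of the 16 other settings tried, and miR-30b-5p was called in 8 of them (adjusted p from 4.82e-04 with DESeq2 to 0.268) and miR-30c-5p in 10 (edgeR adjusted p from 3.79e-04 to 0.150). With library size alone the groups of both still did not overlap. miR-30b-5p then had 57.6 to 69.7 CPM in EV and 77.3 to 81.0 in KO, and miR-30c-5p 445 to 470 CPM in EV and 546 to 562 in KO. Such groups were common, at 29.1% of all tested microRNAs with TMM, and their share with library size alone was not computed.

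**Figure D1:**
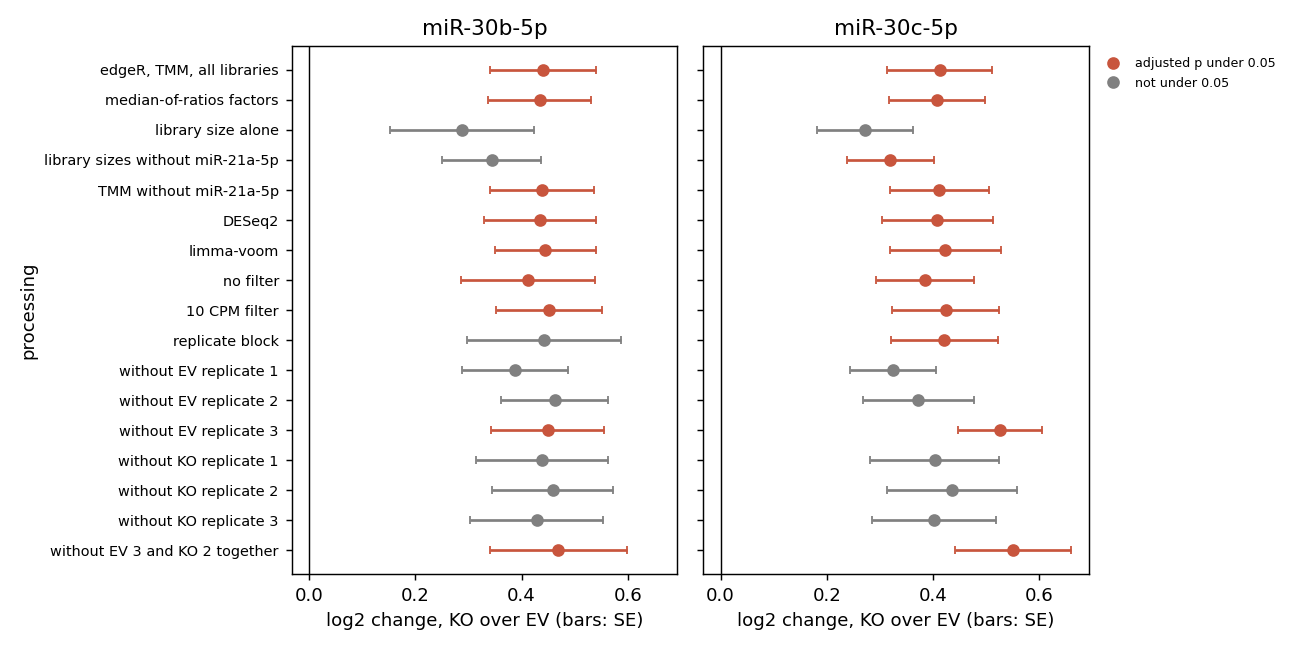
Log2 change of KO over EV (x axis, bars are standard errors) for miR-30b-5p and miR-30c-5p under each processing setting (y axis), in red where the adjusted p was under 0.05. All values lie above 0, from 0.29 to 0.47 for miR-30b-5p and from 0.27 to 0.55 for miR-30c-5p, with 8 and 10 of the 16 other settings in red.

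In the 30b/30d cluster the called miR-30b-5p was the only one of 4 members to pass. miR-30d-5p, by far the most abundant strand of this cluster, stood at 4400, 4184 and 5913 CPM in EV 1 to 3, and at 5249, 5224 and 5790 CPM in KO 1 to 3. EV 3 was above all KO libraries, so the groups overlapped (log2 change 0.17, 95% interval -0.12 to 0.45, edgeR adjusted p = 0.464). Without EV 3 miR-30d-5p was called (log2 0.34, SE 0.08, edgeR adjusted p = 0.0313), and without EV 3 and KO 2 together at 0.37 (SE 0.11, edgeR adjusted p = 0.0155). Over the other settings its edgeR adjusted p reached 0.893. Its 3p strand, miR-30d-3p, had 16.6, 13.9 and 17.9 CPM in EV and 19.5, 20.3 and 20.4 CPM in KO. These groups did not overlap, but the log2 change of 0.32 had a 95% interval of -0.01 to 0.64 (edgeR adjusted p = 0.225). miR-30b-3p had 16.6, 12.0 and 16.1 CPM in EV 1 to 3 and 16.8, 18.6 and 15.6 CPM in KO 1 to 3, with KO 3 below EV 1 and EV 3 (log2 change 0.19, SE 0.16). It was counted from only 147 to 261 reads a library. Summed over its 4 members, the cluster gave 4925 ± 946 CPM in EV and 5542 ± 320 in KO (SD, n = 3 each), a sum that miR-30d-5p sets.

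In the 30a/30c-2 cluster none of the 3 members unique to it was called. miR-30a-5p, the most abundant member and ranked 6 of all microRNAs by total reads, stood at 11941, 12816 and 15899 CPM in EV 1 to 3, and at 15777, 14560 and 16223 CPM in KO 1 to 3. EV 1 and EV 2 were below all KO libraries and EV 3 was among them (log2 change 0.20, 95% interval -0.06 to 0.46, edgeR adjusted p = 0.341). Without EV 3 and KO 2 it was called (log2 0.37, SE 0.11, edgeR adjusted p = 0.0154), and its edgeR adjusted p reached 0.774 in the other settings. miR-30a-3p had 167, 132 and 143 CPM in EV 1 to 3 and 172, 179 and 167 CPM in KO 1 to 3, with EV 1 just above KO 3 (log2 change 0.23, SE 0.10, edgeR adjusted p = 0.194). miR-30c-2-3p had 67.1, 59.4 and 66.8 CPM in EV and 69.7, 68.6 and 75.0 CPM in KO. Its groups lay apart by a small margin, with a log2 change of 0.14 (95% interval -0.09 to 0.38, edgeR adjusted p = 0.459) that turned to -0.02 with library size alone.

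The 30e/30c-1 cluster in Nfyc was the one with members below 0. miR-30e-5p stood at 1311, 1494 and 1896 CPM in EV 1 to 3, and at 1601, 1400 and 1633 CPM in KO 1 to 3, so the KO libraries lay inside the EV range. Its log2 change was -0.02 (95% interval -0.30 to 0.26, edgeR adjusted p = 0.951), and it turned to 0.14 without EV 3, to 0.05 without KO 2 and to 0.21 without both. miR-30e-3p had 67.7, 69.7 and 76.5 CPM in EV 1 to 3 and 73.9, 79.8 and 78.1 CPM in KO 1 to 3, at a log2 change of 0.12 (SE 0.10) that was -0.03 with library size alone. miR-30c-1-3p, the rarest member, had 5.22, 4.82 and 5.09 CPM in EV and 4.78, 4.63 and 4.42 CPM in KO. Every KO library was below every EV library, but at 54 to 82 reads a library the log2 change of -0.13 had a 95% interval of -0.44 to 0.18 (edgeR adjusted p = 0.608).

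**Figure D2:**
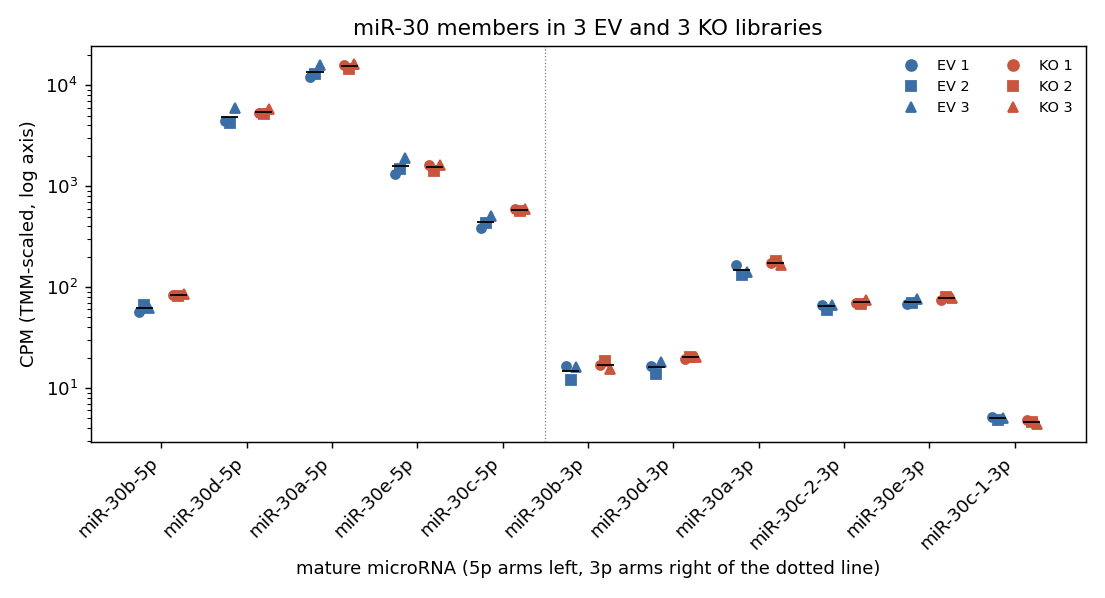
CPM on a log axis (y) for the 11 miR-30 members (x) in each EV (blue) and KO (red) library, with a black bar at the group mean. Levels run from about 4.42 CPM for miR-30c-1-3p to 16223 CPM for miR-30a-5p, and the KO points of miR-30b-5p and miR-30c-5p lie above all their EV points.

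Over the family, 5 of 11 members had groups that did not overlap, 4 higher and 1 lower in KO, where 29.1% of all tested microRNAs had such groups, 15.2% higher and 13.9% lower. With TMM, 9 of 11 log2 changes were above 0, against 48.3% of all tested microRNAs. With library size alone 7 of 11 were above 0, where the median over all tested microRNAs was -0.16. The members below 0 with library size alone were miR-30c-1-3p, miR-30c-2-3p, miR-30e-3p and miR-30e-5p. With library size alone the groups did not overlap for miR-30b-5p and miR-30c-5p, higher in KO, and for miR-30c-1-3p and miR-30e-5p, lower in KO, the last with 1548 to 1743 CPM in EV and 1380 to 1544 in KO. The shares over all tested microRNAs given here are those with TMM. None was computed for library size alone, so these members have no share to be set against. The members share hairpins, clusters and a library scaling, so they are not independent of each other.

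**Figure D3:**
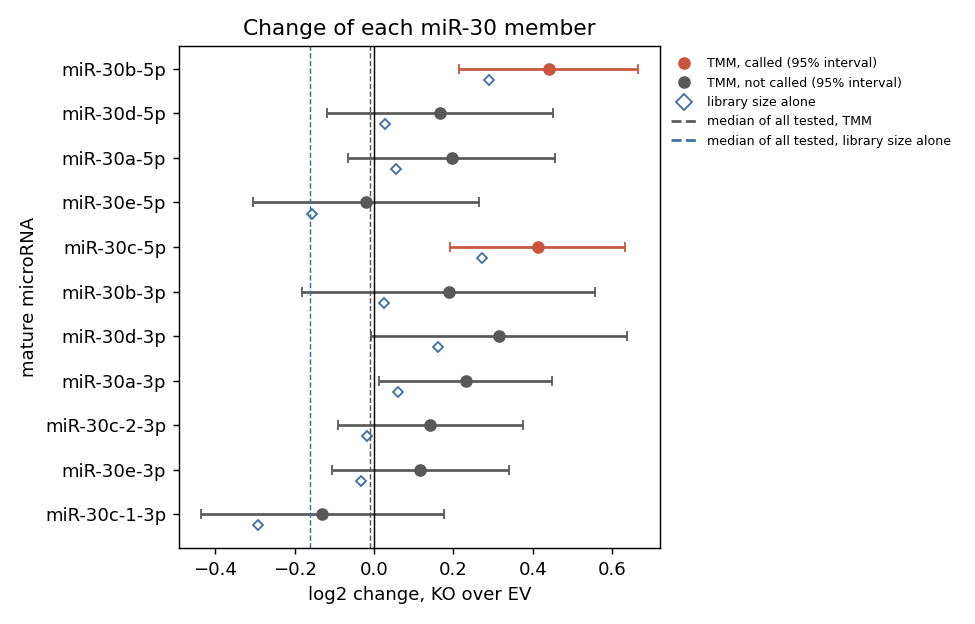
Log2 change of KO over EV (x axis) for each member (y axis) with TMM scaling (filled circles with 95% intervals, red where called) and with library size alone (open diamonds), beside the median of all tested microRNAs under each scaling (dashed lines). The intervals of miR-30b-5p (0.21 to 0.67) and miR-30c-5p (0.19 to 0.63) lie farthest from 0, and library size alone shifts members and median to the left together.

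The family took 2.26%, 2.00% and 2.26% of the reads of EV 1 to 3, and 2.18%, 2.19% and 2.33% of those of KO 1 to 3, so its total share overlapped between the groups. That share is a scaling by library size alone. The make-up of the family within a library, in contrast, does not depend on a scaling factor. Within the family, miR-30a-5p took 65.3% ± 1.02 in EV and 65.99% ± 0.604 in KO, and miR-30d-5p 23.2% ± 1.30 and 23.1% ± 0.755 (SD, n = 3 each). miR-30c-5p took 2.08%, 2.23% and 2.06% of the family's reads in EV and 2.51%, 2.57% and 2.40% in KO. miR-30e-5p went the other way, with 7.11%, 7.75% and 7.71% in EV and 6.77%, 6.30% and 6.62% in KO. For both, no KO library overlapped the EV libraries. Shares within the family are tied to each other, so a lower share need not mean less of that member. In CPM, the KO libraries of miR-30e-5p lay inside the EV range with TMM and below it with library size alone. miR-30b-5p took 0.309%, 0.341% and 0.255% in EV and 0.355%, 0.370% and 0.345% in KO. Its groups were also apart, by a small margin between EV 2 and KO 3.

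**Figure D4:**
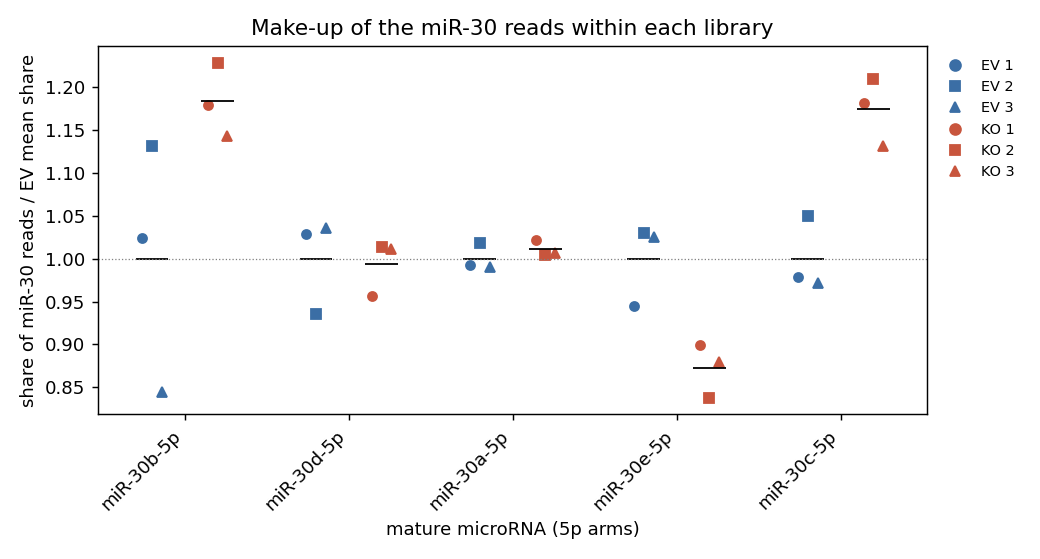
Share of a library's miR-30 reads taken by each 5p member, divided by the mean share in EV (y axis), for each EV (blue) and KO (red) library, with black bars at the group means. The KO points of miR-30c-5p and, by a small margin, of miR-30b-5p lie above all EV points. Those of miR-30e-5p lie below all EV points, while those of miR-30a-5p and miR-30d-5p overlap the EV points.

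The 5p members were therefore also compared directly by the log2 ratio of their reads in each library, for all 10 pairs. miR-30b-5p and miR-30d-5p share a cluster, and miR-30c-5p comes in part from the cluster of miR-30a and in part from that of miR-30e. The ratio of miR-30c-5p to miR-30e-5p was -1.77, -1.80 and -1.90 in EV and -1.43, -1.30 and -1.46 in KO. The ratio of miR-30b-5p to miR-30e-5p was -4.53, -4.50 and -4.92 in EV and -4.25, -4.09 and -4.26 in KO. Both ratios were higher in every KO library than in every EV library, by 0.43 and 0.45 on average on the log2 scale. The log2 ratio of miR-30a-5p to miR-30e-5p, its near-identical relative, was likewise higher, at 3.19, 3.10 and 3.07 in EV and 3.30, 3.38 and 3.31 in KO. The log2 ratios of miR-30a-5p to miR-30b-5p and to miR-30c-5p were lower in KO, by -0.24 and -0.22. In these 5 of 10 pairs the groups did not overlap. In each of them the two-sided exact permutation p was 0.1, the smallest that 3 against 3 can give, and 0.2 adjusted over the 10 pairs, so no pair could pass 0.05. The 10 pairs reuse the same 5 members, so they are not independent of each other. The share of such groups over pairs of other microRNAs was not computed. The log2 ratio of miR-30b-5p to miR-30c-5p was -2.82 ± 0.169 in EV and -2.80 ± 0.0137 in KO (SD, n = 3 each, exact permutation p = 1), a difference of 0.02 that is within the spread of EV. That of miR-30a-5p to miR-30d-5p differed by less than the spread within either group, at 1.49 ± 0.105 and 1.52 ± 0.0609 (SD, n = 3 each, exact permutation p = 0.6). In the other 3 pairs, miR-30b-5p, miR-30c-5p and miR-30e-5p each against miR-30d-5p, the exact permutation p was 0.2 and 0.25 adjusted.

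The arms were compared within each hairpin by the ratio of 5p to 3p reads, tested with limma on the log2 ratio (0.5 reads added to each arm) over all 159 hairpins with both arms tested. The 5p strand led in every library in miR-30a, miR-30b, miR-30d and miR-30e, the 4 hairpins with a 5p strand of their own, by ratios that differed widely. miR-30d had 264, 301 and 329 5p reads for each 3p read in EV and 268, 256 and 283 in KO. miR-30a had 71.3, 96.9 and 111 in EV and 91.5, 81.1 and 96.9 in KO, and miR-30e 19.3, 21.4 and 24.8 against 21.7, 17.5 and 20.9. miR-30b was the most balanced, with 3.42, 5.47 and 3.89 in EV and 5.00, 4.42 and 5.46 in KO. For these 4 hairpins the groups overlapped, with differences in log2 ratio from -0.14 (SE 0.14) for miR-30d to 0.24 (SE 0.18) for miR-30b. The arm ratio of miR-30b, whose 5p strand rose, was not called, and its 95% interval ran from -0.14 to 0.62.

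The 30c hairpins were the ones whose arm ratios lay apart between the groups. miR-30c-5p reads were 72.9, 88.4 and 98.9 times those of miR-30c-1-3p in EV and 123, 122 and 133 times in KO, a difference of 0.55 on the log2 scale (SE 0.21, limma adjusted p = 0.384). Against miR-30c-2-3p they were 5.71, 7.22 and 7.59 times in EV and 8.51, 8.31 and 7.90 times in KO, a difference of 0.28 (SE 0.12, limma adjusted p = 0.525). Neither passed, with unadjusted limma p of 0.0209 and 0.0397, and both ratios use the same pooled miR-30c-5p reads, so they do not show which strand leads in either hairpin. Among all 159 hairpins limma called 0, or 0.00%, with 13 at an unadjusted p under 0.05, and 13.8% had groups that did not overlap. Without EV 3 limma called 3 hairpins, none of miR-30. The log2 ratio of the 2 strands that tell the 30c hairpins apart, miR-30c-2-3p over miR-30c-1-3p, was 3.67, 3.61 and 3.70 in EV and 3.85, 3.88 and 4.07 in KO. Of the 3p reads of the 30c hairpins, most came from the chromosome 1 hairpin in all 6 libraries, and the KO values lay above the EV values, a difference that was given no test.

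**Figure D5:**
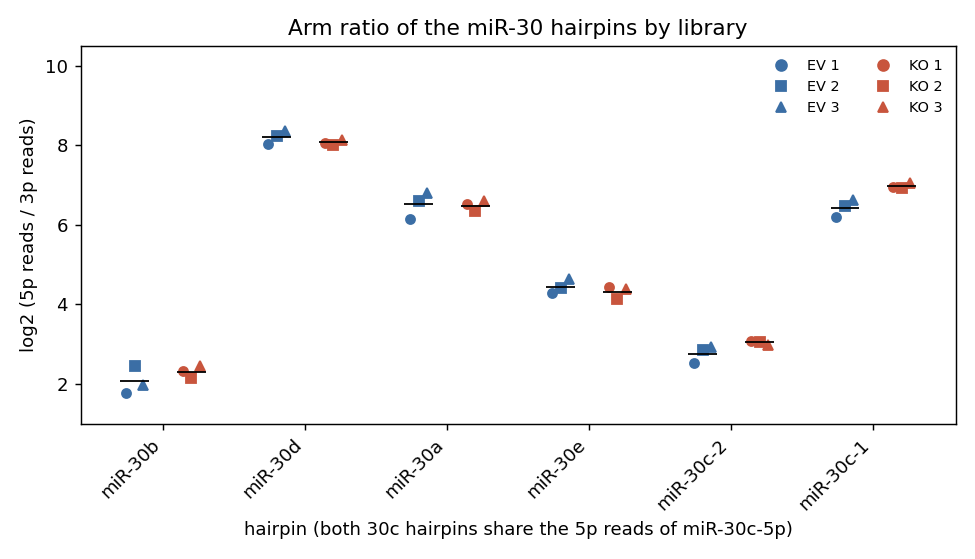
Log2 ratio of 5p to 3p reads (y axis) for each miR-30 hairpin (x axis) in each EV (blue) and KO (red) library, with black bars at the group means; both 30c hairpins use the reads of miR-30c-5p. In the 4 hairpins with a 5p strand of their own the log2 ratio runs from 1.77 in miR-30b to 8.36 in miR-30d, and the KO points lie above all EV points for the 30c hairpins alone.

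By level, the members kept one order at the top in every library, miR-30a-5p, miR-30d-5p, miR-30e-5p, miR-30c-5p and then miR-30a-3p. All are strands of 22 or 23 bases where the sequence was matched and CPM holds no length term, but adaptor ligation favours some sequences, so levels of different microRNAs are only roughly comparable. Below them the order changed. In EV miR-30e-3p led, at 71.3 ± 4.59 CPM, with miR-30c-2-3p at 64.4 ± 4.35 and miR-30b-5p at 61.8 ± 4.52 (SD, n = 3 each), the last 2 within their spread. In KO miR-30b-5p was the highest of the 3 in every library, at 83.8 ± 1.45 CPM, against 77.3 ± 3.08 for miR-30e-3p and 71.1 ± 3.43 for miR-30c-2-3p. miR-30d-3p and miR-30b-3p were within their spread in EV, at 16.1 ± 2.07 and 14.9 ± 2.52 CPM, and apart in KO, at 20.1 ± 0.477 and 17.0 ± 1.52 CPM.

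Outside the family, miR-384-5p, which has the miR-30 5p seed (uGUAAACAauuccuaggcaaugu), had 2 reads in KO 2 and 0 elsewhere. miR-30f (gUAAACAUccgacugaaagcuc), annotated on the strand opposite Mir30e at chromosome 4, 120772621 to 120772642, carries the same letters shifted by 1 base. It stood at 8.30 to 13.4 CPM in EV and 12.4 to 13.0 CPM in KO (log2 change 0.13, SE 0.19, edgeR adjusted p = 0.715). miR-133, which like miR-30 is known to act on connective tissue growth factor, had 2 of its 4 listed strands in the table, and 0 passed the filter. In a list of 8 other microRNAs known as antifibrotic or linked to the epithelial state (miR-29, miR-101, miR-24 and miR-26 strands), 1 of 8 tested rose and 0 fell, where 5.00% of all tested microRNAs rose and 2.61% fell. The median log2 change of the list was 0.26, against -0.01 over all. The epithelial miR-200 strands given above are not in this list, and their median log2 change was -0.73 over the 4 tested. The strand of the list of 8 that rose was miR-101a-3p, a microRNA that targets Ezh2 (log2 0.57, SE 0.08, edgeR adjusted p = 0.00442). Its relative miR-101b-3p, in the same list and more abundant (mean 1324 against 605 CPM), was not called (log2 0.02, SE 0.07, edgeR adjusted p = 0.916).

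The microRNAs whose pattern over the 6 libraries lay closest to that of miR-30a-5p were miR-10a-5p, miR-146b-5p, miR-145a-5p, miR-10b-5p and miR-669a-5p. Their root mean square differences from it, in log2 CPM centred on each microRNA's own mean, were 0.03, 0.06, 0.06, 0.06 and 0.07, where the median over the microRNAs outside the family was 0.28. Their log2 changes ran from 0.11 to 0.17, and none of these was called.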

How the data were processed

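Small RNA of mouse epicardial cells (3 EV and 3 KO libraries) was sequenced, per the labels' protocols after Trizol extraction, NEBNext adaptor ligation and gel size selection. The deposited counts are whole reads per mature microRNA. The submitters' processing notes name Bowtie, the build mm10 and DESeq 1.8.3. The sources used here do not give the rule for reads that match several microRNAs, or the miRBase release. Deposited TPM values, each count scaled to its library total, entered no test. For listed microRNAs the authors' deposited table holds mean signals per group (normalized counts), the log2 fold change, and its p-value before and after adjustment.

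The 2 groups were compared with edgeR 4.0.16 (R 4.3.3; TMM, filterByExpr with a minimum count of 10 and a minimum total of 15, two-sided quasi-likelihood F test, threshold 0.05), with intervals at 95%. Arm ratios were tested with limma 3.58.1, and pairs of members with exact permutation tests. DESeq2 1.42.0 served as an alternative. The scripts were tested on simulated data. The text names every member, seed relatives in the table, members of 2 comparison lists that were called, markers of other cell types, and the 5 microRNAs nearest in pattern to the most abundant member. Members and lists were chosen with earlier results of these data known, and leaving out EV 3 and KO 2 together, library sizes without miR-21a-5p and library weights were added as alternatives after seeing the data. Libraries of a group were distinct (smallest chi-square 9040 on 459 degrees of freedom). The labels do not say that replicates were separate cultures, so the p-values cover only the spread seen between these 6 samples, possibly technical, and reads without molecular identifiers are not independent molecules. The Hdac3 mRNA is not measured in these libraries, so the knockout was not checked.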

Additional observations from a re-analysis of the deposited data

How the results depend on the processing

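The count of called microRNAs was 35, and 5 with library size alone (1 higher and 4 lower, against 23 higher and 12 lower with TMM), 44 with library sizes without miR-21a-5p (19 higher and 25 lower), 56 without the filter, 88 without EV 3 and KO 2, and 15 to 59 with 1 library left out (15 without KO 2, 59 without EV 3). The number of miR-30 members called was 2, and 0 with library size alone, 1 with library sizes without miR-21a-5p, 4 without EV 3 and KO 2, and 0 to 3 with 1 library left out (3 without EV 3, 0 without any other). With the replicate number as a block it was 1, miR-30c-5p, while miR-30b-5p was not called (log2 0.44, SE 0.15, edgeR adjusted p = 0.0619), and 34 microRNAs were called in all, but the numbers share no stated origin, and same-numbered libraries deviated together with correlations of only 0.297, -0.0354 and -0.217. No hairpin's arm ratio was called in the full comparison, 3 were without EV 3 and KO 2, and 0 to 3 with 1 library left out (3 without EV 3), none of them a miR-30 hairpin. The exact tests of the pairs could not pass 0.05 at this number of libraries in any setting, so they say nothing about stability.

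Directions turned where changes were small. With library size alone miR-30c-2-3p and miR-30e-3p stood at -0.018 and -0.033. miR-30e-5p ranged from -0.13 to 0.14 with 1 library left out, above 0 without EV 3 and without KO 2 (0.05), and stood at 0.21 without both. The difference in arm ratio of miR-30a ranged from -0.21 to 0.11 with 1 library left out and was 0.18 without EV 3 and KO 2, where that of miR-30e was 0.064. The change in the ratio of miR-30a-5p to miR-30d-5p ranged from -0.012 to 0.084, and that of miR-30b-5p to miR-30c-5p from -0.076 to 0.080, with 1 library left out. The cause was not tested. Depth limits miR-30c-1-3p most, with 54 to 82 reads a library.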
